A study of Homo sapiens with 12 samples.

Results

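The genes described here encode the proteasome and the proteins that build, activate or inhibit it. They are the 48 of 60835 gene symbols in the deposited count tables that consist of PSM, a letter from A to G and a number. The rule used no expression value. It separates 19 core genes (PSMA and PSMB) and 29 regulatory genes (PSMC to PSMG). By role, the set holds 7 alpha genes, 7 standard beta genes, 3 immunoproteasome beta genes (PSMB8, PSMB9 and PSMB10) and 2 core genes with tissue-restricted roles (PSMA8 in testis, PSMB11 in thymus). On the regulatory side it holds 6 ATPase genes (PSMC), 14 PSMD genes, 4 activator genes (PSME), the inhibitor gene PSMF1 and 4 assembly chaperone genes (PSMG).

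Poly(A) RNA was sequenced from LNCaP, an androgen-responsive line derived from a prostate cancer metastasis. LNCaP cells carrying an shRNA against FOXA1, a forkhead factor of the luminal prostate lineage, were set against LNCaP cells with a control shRNA. LNCaP cells carrying an shRNA against TRIM28, the corepressor that KRAB zinc finger proteins bring to DNA, were set against a separate group with a control shRNA. The cell line field of the labels reads LACAP, and the extraction protocol names LNCaP. Each of the 4 groups had 3 replicates, described by the submitters as biological. The labels do not say how many shRNAs were used, when cells were collected, or whether each group was a clone or a pool, and all 12 libraries carry the same batch label. Titles of the knockdown libraries call them SH control, whereas their treatment labels name the shRNA against FOXA1 or TRIM28, which put them in their groups here.

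The 20S core proteasome is a barrel of stacked rings of alpha and beta subunits, and 3 of the standard beta subunits carry the proteolytic sites. The 19S regulatory particle caps the barrel: its ATPase ring unfolds substrates, and its PSMD subunits bind, deubiquitinate and position them. Interferon can replace the catalytic beta subunits by those of the immunoproteasome, and the activators PSME1 and PSME2 are interferon-responsive as well. When proteasome activity is limiting, the transcription factor NFE2L1 (NRF1) is processed by DDI2 and NGLY1 and raises most subunit genes together through antioxidant response elements.

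Library totals ranged from 12256092 to 15152890 counts. FOXA1 was lower in FOXA1 knockdown libraries than in their controls (log2 fold change -1.78 ± 0.05, SE), and TRIM28 was lower in TRIM28 knockdown libraries than in theirs (-2.01 ± 0.28). The TRIM28 knockdown libraries were lower in FOXA1 too (-0.90 ± 0.17). Summed CPM of 9 luminal prostate markers lay between 2226 and 2603 in the knockdown libraries and between 3528 and 3633 in the control libraries. Of these markers 7 fell and 0 rose in the TRIM28 knockdown, whereas 3 fell and 5 rose in the FOXA1 knockdown. Replicate 3 of the TRIM28 knockdown stood apart. Its counts differed from those of its group partners with a chi-square per degree of freedom of 25.8 and 23.3, against 4.03 between those partners and 3.12 to 6.31 within the other groups. It had the lowest TRIM28 level of its group (56.6 CPM, against 129 and 115) and the highest FOXA1 level (412 CPM, against 278 and 253). Its 6 fibroblast markers summed to 447 CPM, against 32.4 and 42.2 CPM in its partners and at most 34.3 CPM in its control group, and each of the 6 passed 10 counts in at least 1 library. Whether that library's difference bears on the proteasome results was not tested beyond leaving it out. Leukocyte markers, which matter for the immunoproteasome, summed to between 5.67 and 10.1 CPM in the 12 libraries, and 7 of the 9, among them PTPRC, CD3E, MS4A1, CD68, CD14 and ITGAM, had at most 10 counts in every library.

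Most constitutive proteasome genes were well expressed in LNCaP cells, and the immunoproteasome genes PSMB8 and PSMB9 were close to the limit of detection. The levels below are FPKM, which divides by a gene length, as the median of the 6 control libraries. The lengths implied by the deposited values ran from 762 to 8154 bases over the members, and the order and medians depend on them. In FOXA1 control replicate 1, PSMA4 (4378 bases) had 4021 counts and PSMA7 (1023 bases) had 3786. Whether these lengths match the transcripts expressed was not tested. PSMA7, an alpha subunit, had 264 FPKM (range 255 to 270). PSMD2, a scaffold of the base of the regulatory particle, had 258 FPKM (244 to 275). PSMB3, a structural beta subunit, had 250 FPKM (246 to 264). These 3 ranges overlapped, whereas PSMB7, next in order at 222 FPKM (206 to 231), lay below all of them. The standard beta genes had a median of 152 FPKM over 7 genes, and the 4 alpha genes free of the overlap described next had a median of 93.3 FPKM. The medians were 47.4 FPKM for the 6 ATPases, 49.1 FPKM for 13 PSMD genes, 49.5 FPKM for 3 activators and 12.3 FPKM for the 4 PSMG chaperones. The activator PSME2, at 14.3 FPKM, was left out of the activator median because 0.125% of its coding bases are shared with another gene. Together the 48 genes took between 0.626% and 0.672% of each library's counts.

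**Figure D1:**
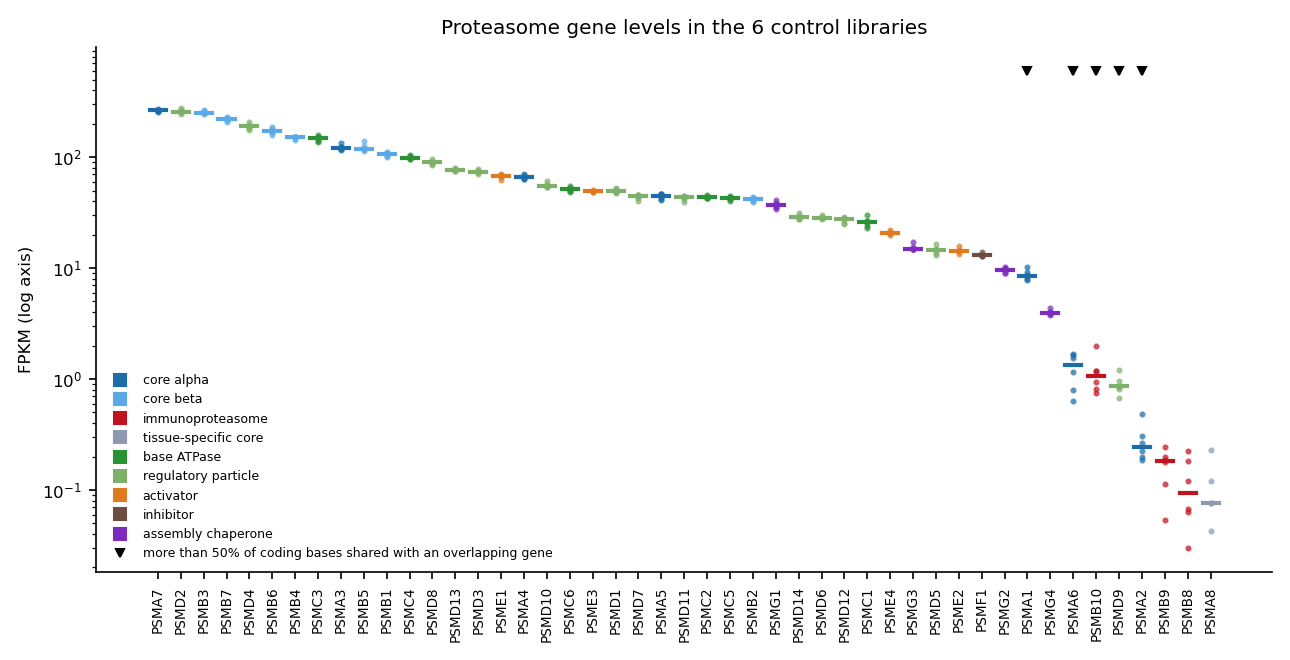
FPKM in the 6 control libraries (points, log axis) and their median (bar) for the 47 proteasome genes with a median above 0, ordered by median and coloured by role; values of 0 are not drawn. Constitutive genes with no coding bases shared on the same strand run from 264 FPKM (PSMA7) down to 3.96 FPKM (PSMG4). Triangles mark 5 genes whose counts could be affected by an overlapping gene on the same strand, 4 of which lie below PSMG4.

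The levels of 5 members cannot be read as expression levels. GENCODE release 29 places another gene on the same strand over most coding bases of PSMA1 (88.6%), PSMA2 (97.1%), PSMA6 (70.4%), PSMD9 (58.7%) and PSMB10 (58.3%). Counters often discard reads that fall in 2 genes, and no source used here gives the counting rule. Its part in these values was not tested. The overlapping genes themselves held few reads: 0 for that over PSMA1, at most 1 over PSMA2, at most 4 over PSMA6, at most 1 over PSMD9 and 6 to 16 over PSMB10. PSMA1 had 8.56 FPKM, PSMA6 1.35 FPKM, PSMB10 1.06 FPKM, PSMD9 0.859 FPKM and PSMA2 0.245 FPKM. The 37 other constitutive members with no coding bases shared on the same strand ranged from 3.96 to 264 FPKM with a median of 51.3 FPKM. Genes on the opposite strand were not considered for that range. Fold changes of the 5 rest on the reads that were kept.

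At the low end, PSMB9 had 0.183 FPKM, PSMB8 0.0938 FPKM and the testis alpha subunit PSMA8 0.0761 FPKM, with overlapping ranges. The thymus beta subunit PSMB11 had 0 counts in 11 of 12 libraries and 1 count in replicate 2 of the TRIM28 knockdown. A count of 0 allows up to 3 counts, or between 0.198 and 0.245 CPM at these depths, counting error only.

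FOXA1 knockdown moved many proteasome genes by small amounts in both directions. Of 45 members that passed the filter on low counts, 10 rose and 14 fell at an adjusted p under 0.05 (edgeR quasi-likelihood test, Benjamini-Hochberg over all genes tested). The rises include PSMB9, which passed the filter only through the knockdown libraries. That is 53.3% of the tested members, and 52.4% of all 14953 genes tested were called in this comparison, 26.1% upward and 26.3% downward. The median log2 fold change was -0.078 over the members and -0.017 over all genes tested. Sizes were modest: 5 of 45 members (11.1%) changed by over 1.5-fold in either direction, against 24.5% of all genes, and the median absolute log2 fold change was 0.168, against 0.312. Members past 1.5-fold were PSMA1, PSMA2 and PSMB10, whose counts could be affected by an overlapping gene, and PSMB9 and PSMD5. These shares were not matched for expression level. The knockdown libraries all lay above their controls for 9 of the 48 members and all below for 16, against 58.4% of all tested genes with no overlap in either direction. Leaving out FOXA1 control replicate 2 gave 6 rises, and leaving out FOXA1 knockdown replicate 2 gave 9 falls. Of all genes tested, 48.6% and 46.3% were called in these fits. Every called member is named below, which goes beyond the naming rule; those outside it were chosen after their values were seen.

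The catalytic subunits fell slightly after FOXA1 knockdown. PSMB5, which carries the chymotrypsin-like site, had 121, 111 and 118 CPM in FOXA1 knockdown libraries, against 132, 157 and 142 CPM in control libraries. In bulk libraries fewer cells of a type and less RNA per cell cannot be told apart. The groups did not overlap, and the log2 fold change was -0.30 ± 0.06 (SE, adjusted p = 0.00011). PSMB6, which carries the caspase-like site, had 131, 129 and 136 CPM in the knockdown, against 147, 163 and 151 CPM in controls, again with no overlap (-0.22 ± 0.05, adjusted p = 0.00092). PSMB7, which carries the trypsin-like site, had 198, 190 and 201 CPM in the knockdown, against 221, 221 and 230 CPM in controls (-0.19 ± 0.05, adjusted p = 0.0014). The structural subunit PSMB4 fell as well (-0.17 ± 0.05), PSMB2 rose (0.19 ± 0.05), and PSMB1 and PSMB3 were not called at -0.03 ± 0.05 and -0.06 ± 0.05. Among alpha genes, PSMA1 fell (-0.68 ± 0.13) and PSMA5 fell (-0.16 ± 0.05). The other 5 alpha genes were not called, with log2 fold changes from -0.60 (PSMA2, a gene with few counts) to 0.02 (PSMA4). The PSMA5 call was lost without FOXA1 control replicate 2 (-0.13, adjusted p = 0.079) and without FOXA1 knockdown replicate 2 (-0.14, adjusted p = 0.065) or 3 (-0.13, adjusted p = 0.084). It held under 8 of its 12 alternatives, with adjusted p values up to 0.13. PSMA6 was called as lower without FOXA1 control replicate 2 (-0.89, adjusted p = 0.0065).

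Within the regulatory particle the PSMD genes split. PSMD12, a lid scaffold subunit, had 179, 160 and 171 CPM in FOXA1 knockdown libraries, against 113, 125 and 123 CPM in control libraries. Every knockdown library exceeded every control library (0.50 ± 0.06, adjusted p = 8.7e-09). PSMD5, a chaperone of base assembly, had 81.4, 69.7 and 79.4 CPM in the knockdown, against 44.1, 50.1 and 49.8 CPM in controls, the highest fold change of a PSMD gene (0.68 ± 0.07, adjusted p = 4e-09). PSMD10, also known as gankyrin and another base assembly chaperone, had 112, 109 and 107 CPM in the knockdown, against 78.7, 84.8 and 91.0 CPM in controls (0.37 ± 0.06, adjusted p = 5.3e-06). No PSMD gene other than these 3 was called upward.

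Of the 14 PSMD genes, 6 fell after FOXA1 knockdown. PSMD14, the deubiquitinase that strips ubiquitin from substrates, had 106, 107 and 104 CPM in FOXA1 knockdown libraries, against 140, 141 and 155 CPM in control libraries. No libraries overlapped, and the log2 fold change was -0.46 ± 0.05 (adjusted p = 3.5e-08). PSMD7, the lid partner of PSMD14, fell by 0.24 on the log2 scale (SE 0.06). The base scaffolds PSMD2 and PSMD1, the ubiquitin receptor PSMD4 and the lid subunit PSMD8 fell by 0.19, 0.13, 0.15 and 0.16. PSMD3, PSMD6, PSMD9, PSMD11 and PSMD13 were not called. Of the 6 ATPase genes only PSMC4 was called, at 0.14 ± 0.05, and the others ranged from -0.20 (PSMC1) to 0.06 (PSMC6). The calls of 4 of these small changes were lost without single libraries. Without FOXA1 knockdown replicate 2, PSMD1 (-0.06, adjusted p = 0.34), PSMD4 (-0.10, adjusted p = 0.16) and PSMD8 (-0.10, adjusted p = 0.13) were not called. PSMD1 was also lost without FOXA1 control replicate 1 or 2 or knockdown replicate 1 (-0.14, -0.10 and -0.14), and under 5 alternatives that kept every library of the comparison, DESeq2 among them (-0.12, adjusted p = 0.087). The call was also lost for PSMD4 without control replicate 3 (-0.10) and for PSMD8 without control replicate 1 (-0.14). PSMC4 was lost without control replicate 2 or 3 or knockdown replicate 1 or 3 (0.14, 0.11, 0.14 and 0.14), without the low-count filter (adjusted p = 0.054) and in the fit over all 12 libraries (adjusted p = 0.085). PSMC1 was called as lower with the replicate block (-0.20, adjusted p = 0.0052), without the low-count filter (-0.20, adjusted p = 0.0052) and without knockdown replicate 1 (-0.27, adjusted p = 0.011).

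Among activators, PSME3, the nuclear activator, rose (0.34 ± 0.05, adjusted p = 5.2e-07), with 214, 216 and 209 CPM in FOXA1 knockdown libraries, against 172, 167 and 165 CPM in control libraries. PSME1, of the interferon-responsive pair, rose by 0.20 ± 0.06 on the log2 scale, with 87.8, 88.0 and 86.6 CPM in the knockdown, against 79.5, 70.9 and 78.2 CPM in controls. Its partner PSME2 was not called (0.01 ± 0.08, 95% interval -0.15 to 0.17), nor was the activator PSME4 (-0.03 ± 0.05) or the inhibitor PSMF1 (-0.11 ± 0.05). PSMG1, which with PSMG2 forms the chaperone that starts the alpha ring, had 49.2, 40.1 and 47.1 CPM in the knockdown, against 63.1, 67.7 and 72.2 CPM in controls. It fell by 0.57 on the log2 scale (SE 0.08, adjusted p = 3.1e-07), with no overlap between the groups. PSMG2 fell by 0.24 (SE 0.07). PSMG3, of the second chaperone pair, was called upward with overlapping libraries (0.25 ± 0.11, adjusted p = 0.047), and its partner PSMG4 was not called (-0.13 ± 0.10). The PSMG3 call was lost without any 1 of the 3 control replicates or without knockdown replicate 1 or 3 (log2 fold changes of 0.14 to 0.28). That of PSME1 was lost without control replicate 2 (0.15, adjusted p = 0.057) and that of PSMG2 without knockdown replicate 2 (-0.17, adjusted p = 0.073).

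**Figure D2:**
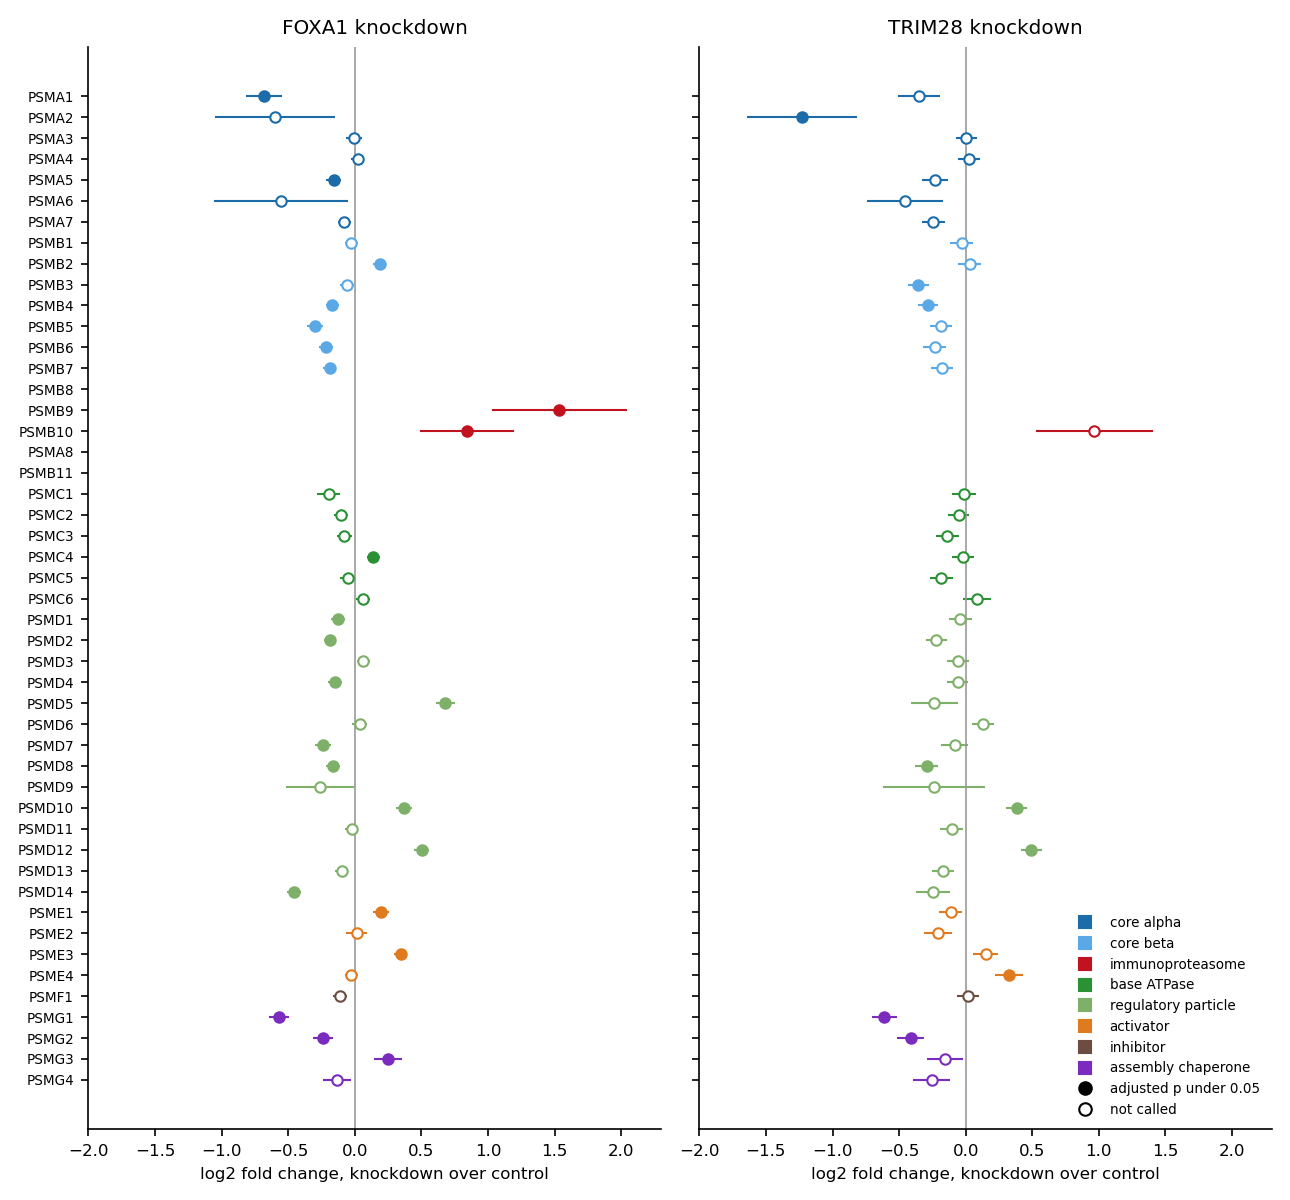
Log2 fold change of each tested proteasome gene (x axis, error bars ± SE) in the FOXA1 knockdown (left) and the TRIM28 knockdown (right), each over its own control, with genes grouped by role from top to bottom. Filled points had an adjusted p under 0.05: 10 rose and 14 fell in the FOXA1 knockdown, and 3 rose and 6 fell in the TRIM28 knockdown. These include PSMB9 (left), which passed the low-count filter only through the knockdown libraries. They also include PSMA2 (right), for which only the control libraries all reached 10 counts. Genes with no point were not tested.

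The TRIM28 knockdown called fewer members. Of 44 tested, 3 rose and 6 fell (edgeR, adjusted p under 0.05), or 20.5%, and 26.7% of all 14981 genes tested were called, 13.3% in each direction. The falls include PSMA2, which reached 10 counts in all 3 libraries of the control group alone. The median log2 fold change was -0.15 over the members and 0.0022 over all genes tested. Scaling by library totals alone gave 3 rises and 3 falls among the members, put their median at -0.073 and split the calls over all genes into 2597 upward and 1502 downward. By size, 3 of 44 members (6.82%) changed by over 1.5-fold, against 21.3% of all genes. They were PSMG1 and, with few counts and an overlapping gene on the same strand, PSMA2 and PSMB10. All knockdown libraries lay above their controls for 5 of the 48 members and below for 17, against 43.9% of all tested genes with no overlap in either direction.

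The count of falls rested on the replicate that stood apart. Without TRIM28 knockdown replicate 3, 3 members rose and 16 fell of 45 tested, or 42.2%, and 45.0% of all genes tested were then called, 21.5% upward and 23.5% downward. The falls then included 5 of the 7 standard beta genes (PSMB3, PSMB4, PSMB5, PSMB6 and PSMB7), 3 of the 7 alpha genes (PSMA1, PSMA2 and PSMA7) and 5 of the 14 PSMD genes (PSMD2, PSMD5, PSMD8, PSMD13 and PSMD14). Of these, PSMA2 had few counts, and only its control libraries all reached 10. Leaving out TRIM28 control replicates 1, 2 and 3 in turn gave 3, 1 and 3 falls, and leaving out TRIM28 knockdown replicates 1 and 2 gave 5 and 2. Of all genes tested, 13%, 11.7% and 13.8% were called without those control replicates, and 19.4% and 16.2% without those knockdown replicates.

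PSMD12 and PSMD10 rose in the TRIM28 knockdown as well. PSMD12 had 168, 178 and 162 CPM in TRIM28 knockdown libraries, against 120, 115 and 126 CPM in control libraries (0.49 ± 0.08, adjusted p = 0.0024). PSMD10 had 110, 108 and 104 CPM in the knockdown, against 81.1, 83.2 and 83.5 CPM in controls (0.38 ± 0.08, adjusted p = 0.0068). Neither gene's groups overlapped, and replicate 3 sat beside its partners. The activator PSME4, known for roles in DNA repair and in spermatogenesis, was called at 0.32 ± 0.10 (adjusted p = 0.043). It had 178, 182 and 227 CPM in the knockdown, against 151, 153 and 165 CPM in controls, so replicate 3 was the highest, and without it the change was 0.20 ± 0.07 and still called. The PSME4 call was lost without TRIM28 control replicate 1, 2 or 3 (0.29, 0.30 and 0.35) or knockdown replicate 2 (0.37).

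PSMG1 had the lowest adjusted p of the falls. It had 43.9, 39.8 and 43.4 CPM in TRIM28 knockdown libraries, against 66.4, 66.0 and 61.6 CPM in control libraries, with no overlap (-0.61 ± 0.09, adjusted p = 0.0017). PSMG2 had 41.4, 42.2 and 47.7 CPM in the knockdown, against 57.1, 61.7 and 56.0 CPM in controls (-0.41 ± 0.10, adjusted p = 0.013). Both partners of the alpha ring chaperone fell in each knockdown. PSMB3 had 154, 145 and 159 CPM in the knockdown, against 189, 201 and 197 CPM in controls (-0.36 ± 0.08, adjusted p = 0.0092). PSMB4 and PSMD8 fell by 0.28 and 0.29. Without control replicate 2, none of PSMG2 (-0.38, adjusted p = 0.070), PSMB3 (-0.35, adjusted p = 0.052), PSMB4 (-0.26, adjusted p = 0.095) and PSMD8 (-0.25, adjusted p = 0.13) was called. Without knockdown replicate 2, PSMG2 (-0.39), PSMB4 (-0.27) and PSMD8 (-0.29) were not called, and without control replicate 1 or 3 neither PSMB4 (-0.30 and -0.31) nor PSMD8 (-0.34 and -0.31) was. PSMA2, with 8, 11 and 10 counts in the knockdown and 36, 20 and 15 in controls, reached 10 counts in all 3 libraries of the control group alone and was called at -1.23 ± 0.41 (adjusted p = 0.0498), a call lost under 11 of its 12 alternatives. The value was -0.86 without control replicate 1 and -1.43 without control replicate 3.

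The catalytic subunits were not called with all 6 libraries. PSMB5 had 123, 116 and 116 CPM in TRIM28 knockdown libraries, against 128, 140 and 137 CPM in control libraries (-0.19 ± 0.08, adjusted p = 0.11). PSMB6 had 129, 126 and 133 CPM in the knockdown, against 148, 165 and 143 CPM in controls (-0.23 ± 0.08, adjusted p = 0.065). PSMB7 had 185, 189 and 202 CPM in the knockdown, against 203, 229 and 219 CPM in controls (-0.18 ± 0.08, adjusted p = 0.14). In each of the 3 genes every knockdown library was below every control library. PSMD14 showed the part of replicate 3 plainly: it had 107, 106 and 148 CPM in the knockdown, against 137, 151 and 139 CPM in controls, and its log2 fold change was -0.24 ± 0.13 with that library and -0.42 ± 0.07 without it.

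**Figure D3:**
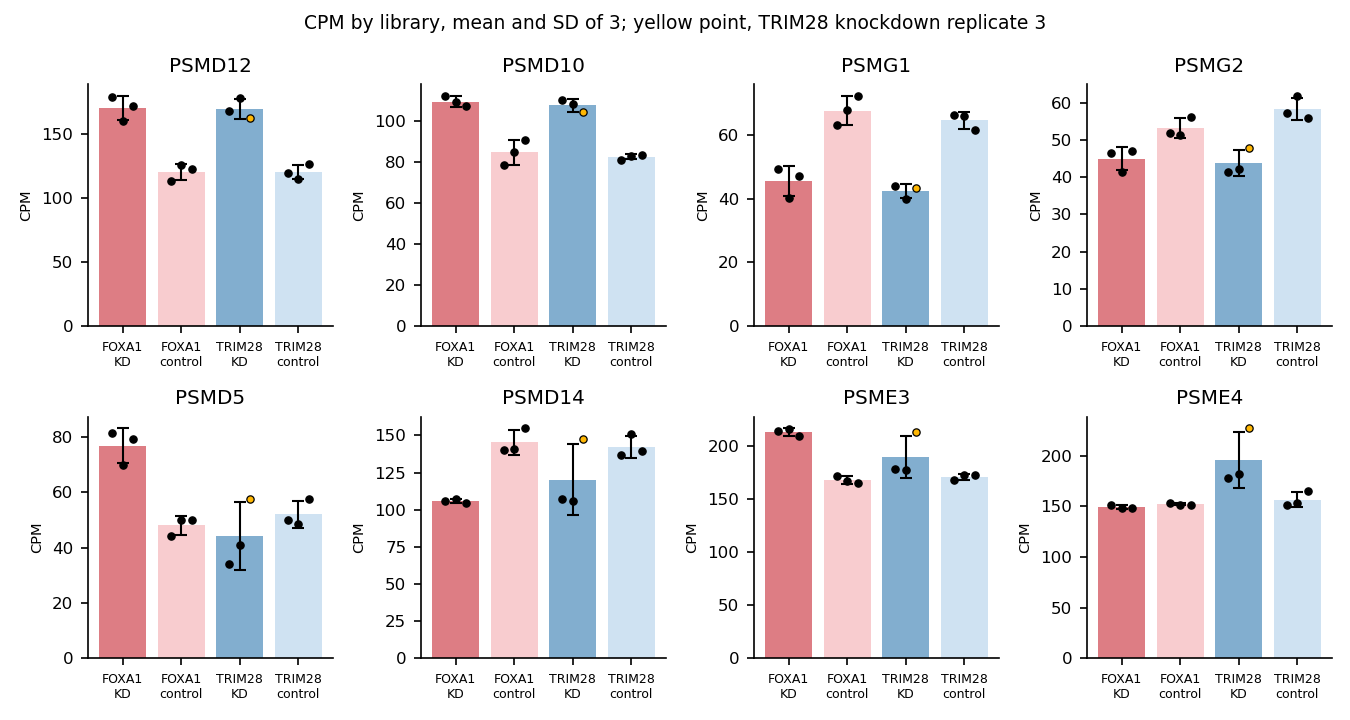
CPM of 8 proteasome genes by library (points), with the mean and SD of 3 libraries (bars), in FOXA1 knockdown, FOXA1 control, TRIM28 knockdown and TRIM28 control libraries; the genes were chosen after their values were seen, and CPM are scaled within each knockdown and its control. PSMD12 and PSMD10 were higher and PSMG1 and PSMG2 lower in both knockdowns, PSMD5 was higher in the FOXA1 knockdown, and TRIM28 knockdown replicate 3 (yellow) lay far from its partners for PSMD14, PSME4 and PSMD5.

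Both tests covered 44 members, and the 2 comparisons used different control libraries. Of these 44, 2 rose in both knockdowns (PSMD12 and PSMD10) and 4 fell in both (PSMB4, PSMD8, PSMG1 and PSMG2). None was called in opposite directions, 18 were called in neither, and 20 in 1 alone. Over all 14498 genes tested in both, 9.80% rose in both, 10.1% fell in both, 0.883% were called in opposite directions, 40.7% in neither and 38.5% in 1 alone. These counts rested on TRIM28 knockdown replicate 3. Without it, 45 members were tested in both, 2 rose in both and 10 fell in both (PSMA1, PSMB4, PSMB5, PSMB6, PSMB7, PSMD2, PSMD8, PSMD14, PSMG1 and PSMG2). PSMD5 was then called in opposite directions, 15 members were called in neither and 17 in 1 alone. Over 14655 genes the shares were then 14.0% rising in both, 15.9% falling in both, 2.5% opposite, 33.4% in neither and 34.1% in 1 alone.

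The difference between the effects, TRIM28 minus FOXA1, was tested directly over all 12 libraries. Of 45 members tested, 2 differed, both with a negative difference, or 4.44%, and 10.6% of all 15921 genes tested were called, 4.59% upward and 5.98% downward (edgeR, adjusted p under 0.05). PSMD5 differed by -0.93 ± 0.21 (95% interval -1.38 to -0.47, adjusted p = 0.012). It had 34.0, 40.8 and 57.6 CPM in TRIM28 knockdown libraries, against 49.9, 48.4 and 57.7 CPM in their controls, and there it was not called (-0.24 ± 0.18, adjusted p = 0.35). Replicate 3 was again the odd library: without it PSMD5 fell in the TRIM28 knockdown by 0.48 on the log2 scale (SE 0.10, adjusted p = 0.00011), and the difference was -1.17 ± 0.12. PSMB3 differed by -0.31 ± 0.09 (adjusted p = 0.038), a call lost under 11 of its 17 alternatives, with values of -0.27 to -0.33 without 1 of 8 single libraries. Without TRIM28 knockdown replicate 3, 5 of 45 members had a called negative difference, as did 2102 of all 16499 genes tested. In that fit 21.4% of all genes tested were called in either direction. PSME1 and PSME4 missed the threshold with all libraries (-0.32 ± 0.10, adjusted p = 0.051; 0.34 ± 0.11, adjusted p = 0.071).

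For the 6 genes called the same way in both knockdowns, no difference between the effects was called. Among those that rose, it was -0.02 for PSMD12 (95% interval -0.23 to 0.19) and 0.0027 for PSMD10 (-0.20 to 0.21). Among those that fell, it was -0.05 for PSMG1 (-0.32 to 0.22), -0.18 for PSMG2 (-0.44 to 0.07), -0.14 for PSMD8 (-0.35 to 0.07) and -0.13 for PSMB4 (-0.30 to 0.05). Differences within these bounds could not be resolved.

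**Figure D4:**
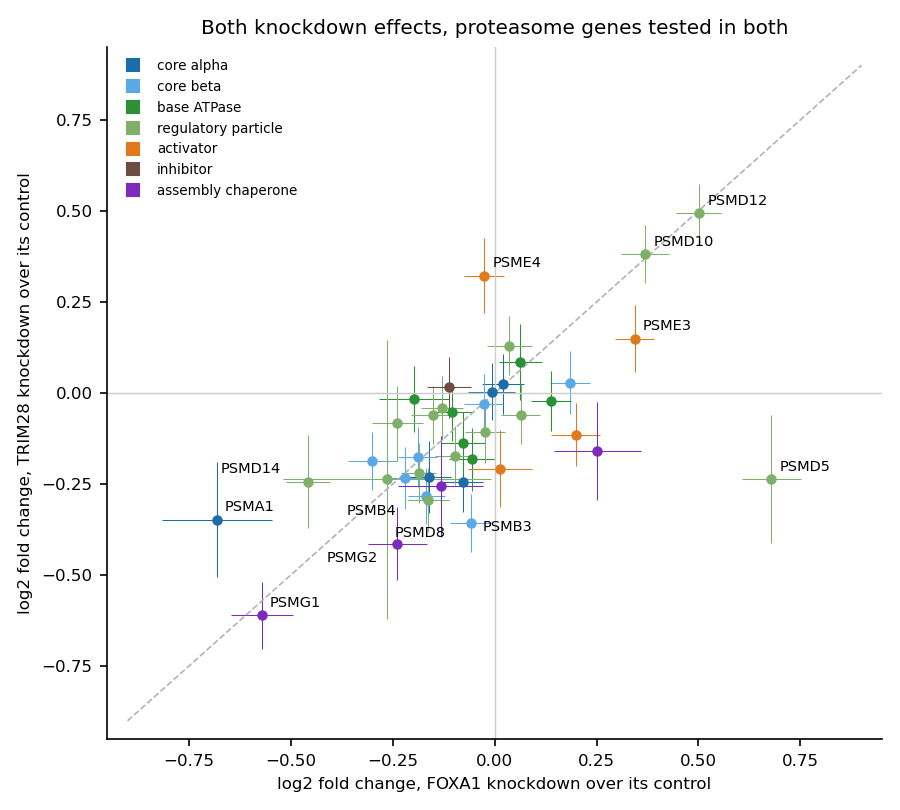
Log2 fold change in the TRIM28 knockdown (y axis) against that in the FOXA1 knockdown (x axis) for 41 proteasome genes tested in both, each over its own control, with SE bars and a dashed line of equal change; PSMA2, PSMA6 and PSMB10, with few counts, are left out. PSMD12, PSMD10 and PSMG1 lie near the line, and PSMD5 lies below it, at -0.24 in the TRIM28 knockdown and 0.68 in the FOXA1 knockdown.

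The sequences before the start sites of 5 members are shown because regulators of these genes are known to act there: PSMD12, PSMD10 and PSMG1 as genes called the same way in both knockdowns, PSMD5 as a gene whose effects differed, and PSMB10 as an immunoproteasome gene. RefSeq windows on GRCh38.p14, from 250 bases before to 50 bases after the start, were matched for 42 of the 48 members (51 windows). They were picked after the values were seen. Capitals mark matches, on either strand, to TGACNNNGC (the core of an antioxidant response element, bound by NFE2L1 and NFE2L2), CCAAT (bound by NFYA, NFYB and NFYC), TGTTTAC (a forkhead motif) or the interferon-stimulated response element, written as GAAA, any pair of bases and GAAA.
PSMD12, chr17:67366528-67366827, minus strand: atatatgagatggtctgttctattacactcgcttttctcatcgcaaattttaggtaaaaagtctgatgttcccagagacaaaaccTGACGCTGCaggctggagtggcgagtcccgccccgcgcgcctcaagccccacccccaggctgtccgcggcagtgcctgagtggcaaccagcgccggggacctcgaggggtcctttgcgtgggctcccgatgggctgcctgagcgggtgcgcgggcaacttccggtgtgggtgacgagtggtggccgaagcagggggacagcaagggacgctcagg
PSMD10, chrX:108091493-108091792, minus strand: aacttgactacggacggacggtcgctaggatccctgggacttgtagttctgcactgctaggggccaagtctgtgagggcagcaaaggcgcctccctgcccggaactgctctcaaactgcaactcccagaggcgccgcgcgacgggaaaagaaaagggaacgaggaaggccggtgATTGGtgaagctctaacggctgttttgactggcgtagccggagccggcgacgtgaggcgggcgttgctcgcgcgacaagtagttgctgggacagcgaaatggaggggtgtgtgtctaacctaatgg
PSMG1, chr21:39183402-39183701, minus strand: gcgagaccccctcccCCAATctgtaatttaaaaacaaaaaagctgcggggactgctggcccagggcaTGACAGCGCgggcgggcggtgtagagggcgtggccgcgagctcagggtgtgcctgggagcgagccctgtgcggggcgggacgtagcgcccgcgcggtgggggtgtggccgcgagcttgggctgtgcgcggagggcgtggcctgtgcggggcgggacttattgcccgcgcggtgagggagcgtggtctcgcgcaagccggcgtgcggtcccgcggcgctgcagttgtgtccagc
PSMD5, chr9:120842873-120843172, minus strand: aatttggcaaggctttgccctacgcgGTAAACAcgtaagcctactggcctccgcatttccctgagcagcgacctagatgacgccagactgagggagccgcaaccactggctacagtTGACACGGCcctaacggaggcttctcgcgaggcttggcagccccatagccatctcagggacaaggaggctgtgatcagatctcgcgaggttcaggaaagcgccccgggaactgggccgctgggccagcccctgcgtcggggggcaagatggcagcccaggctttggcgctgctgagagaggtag
PSMB10, chr16:67936801-67937100, minus strand: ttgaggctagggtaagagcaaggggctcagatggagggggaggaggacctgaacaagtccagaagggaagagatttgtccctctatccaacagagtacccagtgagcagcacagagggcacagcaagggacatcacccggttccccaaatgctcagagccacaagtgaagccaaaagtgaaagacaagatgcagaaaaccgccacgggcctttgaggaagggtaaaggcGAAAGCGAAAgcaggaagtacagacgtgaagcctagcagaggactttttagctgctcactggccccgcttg

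The window of PSMD12 holds 1 antioxidant response element, 165 bases before the start, and that of PSMD10 holds 1 CCAAT box. The window of PSMG1 holds both motifs, and that of PSMD5 an antioxidant response element and a forkhead motif. Over all member windows, 29.4% hold the antioxidant response element, against 13.3% of 35116 RefSeq windows of the same length. CCAAT was in 39.2% of member windows and 34.6% of all windows. The forkhead motif was in 3.92% of member windows (those of PSMB2 and PSMD5), and in 3.42% of all windows. The interferon-stimulated response element was in 13.7% of member windows (PSMA4, PSMB4, PSMB8, PSMB10, PSME1, PSME2 and PSMG4), against 3.57% of all. A match is a run of letters and not a measured binding site.

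The immunoproteasome genes PSMB8 and PSMB9 were near the limit of detection. PSMB10 had 10 to 46 counts, and its level cannot be read because of its overlap. PSMB8, the counterpart of PSMB5, had 7, 7 and 3 counts in FOXA1 knockdown libraries, against 1, 8 and 2 in control libraries, and 4, 3 and 17 in TRIM28 knockdown libraries, against 6, 4 and 2 in their controls. It failed the filter on low counts in every comparison, and its 17 counts came from replicate 3. PSMB9, the counterpart of PSMB6, had 15, 13 and 14 counts in FOXA1 knockdown libraries, against 2, 8 and 4 in control libraries, with no overlap. PSMB9 passed the filter only through the knockdown libraries, so it was tested because it was high there, and its fitted change (1.54 ± 0.50, 95% interval 0.50 to 2.57, adjusted p = 0.012) is given as a description although it is among the 10 rises counted above. The call was lost without FOXA1 control replicate 1 (1.19, adjusted p = 0.081). In the TRIM28 knockdown it had 13, 11 and 5 counts, against 9, 7 and 6 in controls, and was not tested.

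PSMB10, the counterpart of PSMB7, had 28, 24 and 46 counts in FOXA1 knockdown libraries, against 16, 11 and 26 in control libraries. The groups overlapped, and it was called at 0.84 ± 0.35 (adjusted p = 0.047). DESeq2 did not call it (adjusted p = 0.096), nor did the fits without FOXA1 control replicate 1 or 2 or without FOXA1 knockdown replicate 3 (adjusted p = 0.12, 0.21 and 0.30). In all, 7 of its 12 alternatives called it. In the TRIM28 knockdown it had 13, 38 and 23 counts, against 16, 13 and 10 in controls, and was not called (0.97 ± 0.44, adjusted p = 0.13). Relative to the standard subunit, PSMB9 reached 0.246%, 0.245% and 0.233% of the FPKM of PSMB6 in FOXA1 knockdown libraries, against 0.0317%, 0.107% and 0.0654% in control libraries. Over all 12 libraries PSMB8 was between 0.0257% and 0.56% of PSMB5. No such share is given for PSMB10, whose level cannot be read because of its overlap. Leukocyte marker sums in the FOXA1 knockdown (6.14 to 8.20 CPM) overlapped those of its controls (6.94 to 7.96 CPM). In the TRIM28 knockdown these sums (7.18 to 10.1 CPM) all lay above those of its controls (5.67 to 6.7 CPM). Whether this bears on the immunoproteasome counts was not tested.

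**Figure D5:**
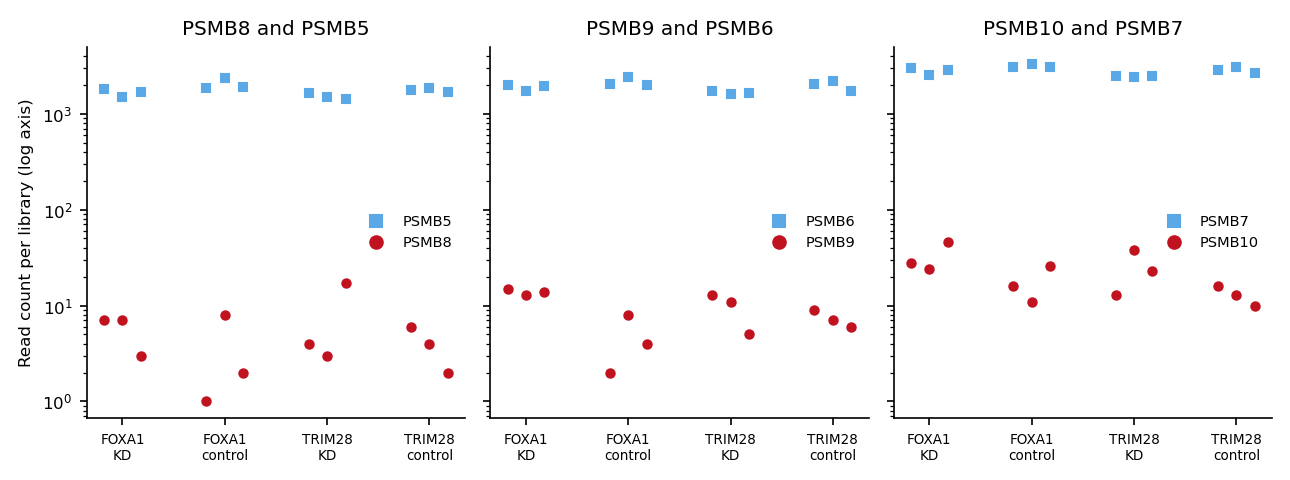
Read counts per library (log axis) of the immunoproteasome genes PSMB8, PSMB9 and PSMB10 (circles) and of the standard subunits PSMB5, PSMB6 and PSMB7 that they replace (squares), in FOXA1 knockdown, FOXA1 control, TRIM28 knockdown and TRIM28 control libraries. The immunoproteasome genes lie between 1 and 46 counts in every group, and PSMB9 had 13 to 15 counts in FOXA1 knockdown libraries, against 2 to 8 in their controls.

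Genes listed for antigen processing and interferon response were called upward more often than downward. Of 33 genes for antigen processing and interferon response, 30 were tested, and 15 rose and 2 fell in the FOXA1 knockdown (median log2 fold change 0.39, against -0.017 over all genes, of which 26.1% rose and 26.3% fell). The interferon gamma receptor chain IFNGR1 rose by 0.76 ± 0.07, the interferon-induced GTPases GBP1 and GBP2 by 1.90 ± 0.21 and 1.97 ± 0.22, and the peptide trimmer ERAP1 by 1.07 ± 0.12. The other 13 tested genes were not called, among them IRF1 (log2 fold change -0.21) and IFIT3 (1.06). In the TRIM28 knockdown 11 of 30 rose and 1 fell (median 0.40, against 0.0022 over all genes, of which 13.3% were called in each direction). There HLA-B rose by 0.65 ± 0.11, HLA-E by 0.50 ± 0.10 and ERAP1 by 0.81 ± 0.18, and the chaperone CALR fell by 0.54 (SE 0.08). In that comparison 18 genes of the list were not called, among them MX1 (log2 fold change -0.73) and IFIT3 (2.12). The ERAP1 call there was lost without control replicate 1 (0.73, adjusted p = 0.057) or 2 (0.77, adjusted p = 0.054).

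Of 15 tested regulators of proteasome gene transcription, 5 rose and 4 fell in the FOXA1 knockdown (9 of 15 called, against 52.4% of all genes), and 5 rose and 2 fell in the TRIM28 knockdown (46.7%, against 26.7%). DDI2, the protease that activates NFE2L1, had 129, 120 and 125 CPM in FOXA1 knockdown libraries, against 82.5, 84.8 and 81.1 CPM in control libraries (0.59 ± 0.06). It had 152, 147 and 123 CPM in TRIM28 knockdown libraries, against 83.7, 75.1 and 88.5 CPM in controls (0.77 ± 0.10). NFE2L1 itself had 650, 615 and 523 CPM in TRIM28 knockdown libraries, against 366, 416 and 398 CPM in controls (0.60 ± 0.10), and in the FOXA1 knockdown it changed by 0.11 ± 0.05, which was not called without FOXA1 control replicate 1 or 2 or knockdown replicate 1 or 2 (0.10 to 0.12). The difference between those effects was 0.48 ± 0.11 (adjusted p = 0.007). NFYA rose by 0.36 ± 0.07 in the FOXA1 knockdown, and its partner NFYC fell in both knockdowns, by 0.57 (SE 0.08) in the FOXA1 knockdown and 0.64 (SE 0.12) in the TRIM28 knockdown. STAT3 rose by 0.43 ± 0.05 in the FOXA1 knockdown, and MAFF, a small partner of NFE2L1, fell by 0.91 (SE 0.21) in the TRIM28 knockdown. With TRIM28 control replicate 2 left out, MAFF changed by -0.74 (adjusted p = 0.068) and was not called.

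Around the particle, changes ran both ways. Of 18 assembly and accessory genes outside the symbol rule, 5 rose and 5 fell in the FOXA1 knockdown (55.6% called, near the 52.4% of all genes), among them ZFAND5 (0.23 ± 0.05), UBE3C (0.19 ± 0.05), ZFAND2A (-0.44 ± 0.11) and ECPAS (-0.18 ± 0.05). In the TRIM28 knockdown 3 rose and 1 fell (22.2%, against 26.7% of all genes): ZFAND5 (0.36 ± 0.08), UBE3A (0.31 ± 0.08), UBE3C (0.26 ± 0.08) and KLHDC3 (-0.27 ± 0.08). Each of these 4 calls was lost without TRIM28 control replicate 1 (0.35, 0.31, 0.21 and -0.25), and those of UBE3C and KLHDC3 without any 1 of 5 libraries. Of 19 tested genes for ubiquitin and substrate delivery, 4 rose and 7 fell in the FOXA1 knockdown (57.9%, against 52.4%), and 4 rose and 6 fell in the TRIM28 knockdown (52.6%, against 26.7%). FAF1, an adaptor of the segregase VCP, fell by 0.63 (SE 0.06) in the FOXA1 knockdown, where VCP rose by 0.41 ± 0.05 and the adaptor FAF2 by 0.41 ± 0.05. In the TRIM28 knockdown the VCP cofactor NPLOC4 rose by 0.44 ± 0.08, the ubiquitin chain elongation factor UBE4B by 0.44 ± 0.08 and FAF2 by 0.40 ± 0.08, the last not called without control replicate 2 (0.37, adjusted p = 0.051).

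No difference between the control groups was called. TRIM28 control against FOXA1 control called 0 of 44 members and 0.0% of 14839 genes in edgeR, and DESeq2 also called 0 members. At an unadjusted p under 0.05, 4 of 44 members passed (9.09%), against 635 of all genes (4.28%). TRIM28 control libraries all lay above FOXA1 control libraries for 1 of the 48 members and below for 6, and 9.35% of all tested genes had no overlap.

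Exons of some members overlap a gene on the opposite strand, and without a stated strand setting the reads of such a pair cannot be told apart. PSMC1, not called with all libraries in the main fits, shares 75.8% of its exon bases with NRDE2 (215 to 322 counts). PSMC5, not called there either, shares 19.5% with FTSJ3 (1205 to 1951 counts). Among the called members with an overlap of over 5% of exon bases, PSMA2 shares 19.5% with AC010132.2 (0 counts in every library), PSMD7 30.7% with AC009120.2 (15 to 57 counts in the 12 libraries), PSMG2 13.9% with CEP76 (115 to 202 counts), PSMD1 10.8% with HTR2B (at most 7 counts) and PSME3 5.82% with BECN1 (748 to 1001 counts). Neither CEP76 (log2 fold changes of 0.26 after FOXA1 knockdown and 0.20 after TRIM28 knockdown) nor AC009120.2 (0.04 and 0.50) was called. BECN1 fell in the FOXA1 knockdown, where PSME3 rose, by 0.21 on the log2 scale. Below the 5% cut, PSMG2 also shares 2.74% of exon bases with SPIRE1 (547 to 1011 counts). SPIRE1 fell in the FOXA1 knockdown, where PSMG2 fell too (log2 fold change of SPIRE1 -0.76), and was not called in the TRIM28 knockdown (0.06).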

How the data were processed

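Per the labels' protocols, poly(A) RNA of LNCaP cells was sequenced in 12 libraries, 3 in each of 4 groups. The deposited files hold unnormalized counts by gene symbol (a table for FOXA1 and a table for TRIM28) and a table of FPKM over the 12 libraries. Reads were placed on GRCh38 (hg38), as the submitters' processing notes state. How they were aligned and counted, and with which annotation and strand setting, is not given in the sources used here. The deposited FPKM equalled the count divided by a gene length and the library total for all 17566 genes checked (relative tolerance 0.001). Each symbol was kept once (60835 symbols on 62710 lines). All value columns had a sample. Titles defined the control groups and treatment labels the knockdown groups, because genotype labels of some replicates name other gene numbers and the titles of knockdown libraries call them SH control.

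Counts were tested with edgeR 4.0.16 in R 4.3.3: filterByExpr with a minimum count of 10 and a minimum total of 15, TMM scaling, robust quasi-likelihood F-tests, two-sided, Benjamini-Hochberg adjustment over all genes tested and a threshold of 0.05. The filter needs 3 libraries at about 10 counts, so a low gene can pass through the group where it is high; 45 of the 48 members passed in the FOXA1 comparison. Each knockdown was fitted with its own control, the difference of effects (TRIM28 minus FOXA1) over all 12 libraries, and the control groups against each other. Values after ± are standard errors, and 95% intervals use the t quantile of the fit. CPM are TMM-scaled within a comparison; FPKM served for levels only and was not tested. The pipeline was tested on simulated data whose spread came from control libraries, so the spread of TRIM28 knockdown replicate 3 was not in it. Changes of 2-fold were recovered for 79.8% (FOXA1), 80.4% (TRIM28) and 77.3% (difference) of changed genes. For 1.41-fold changes the shares were 49%, 64.9% and 39.8%, so small changes can go uncalled. No 2 replicates agreed within sampling noise. Library totals of 12256092 to 15152890 counts limit precision for genes with few counts. Overlapping genes were taken from GENCODE release 29, which held the identifiers of all 48 members, and promoter windows from RefSeq on GRCh38.p14. Alternatives were DESeq2 1.42.0, other scalings, no filter, a replicate block, 1 fit over 12 libraries and leaving out each library.

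The members and gene lists were chosen with earlier results of these data known. Named genes were PSMB5 to PSMB10 in every comparison, up to 6 members with the largest rise and up to 6 with the largest fall among those called, the top 3 and bottom 3 of the level order, FOXA1 and TRIM28, and up to 4 called genes with the smallest p from each other list and comparison. Some genes of these lists are not reported here by name.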

Additional observations from a re-analysis of the deposited data

Results flagged for a closer look

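The genes below changed to different extents in the 2 knockdowns, by the contrast of the TRIM28 effect minus the FOXA1 effect over all 12 libraries (edgeR, adjusted p under 0.05). Among proteasome genes, PSMD5 differed by -0.93 on the log2 scale (-0.24 in the TRIM28 knockdown and 0.68 in the FOXA1 knockdown) and PSMB3 by -0.31 (-0.36 in TRIM28 knockdown and -0.06 in FOXA1 knockdown cells). In the list of regulators of proteasome gene transcription, NFE2L1 differed by 0.48 (0.60 after TRIM28 knockdown, 0.11 after FOXA1 knockdown), and SEL1L, a component of the endoplasmic reticulum degradation machinery, by 0.44 (TRIM28 0.32, FOXA1 -0.12). The ubiquitin chain factor UBE4B differed by 0.38 (TRIM28 0.44, FOXA1 0.04). In the antigen processing list, IFNGR1 differed by -0.44 (TRIM28 0.33, FOXA1 0.76), and CALR by -0.44 (TRIM28 -0.54, FOXA1 -0.11). The difference for SEL1L was not called without FOXA1 control replicate 3, FOXA1 knockdown replicate 3 or TRIM28 control replicate 1 (0.40, 0.41 and 0.38). That for UBE4B was not called without FOXA1 control replicate 1, FOXA1 knockdown replicate 3 or TRIM28 control replicate 1 (0.34, 0.35 and 0.35), and that for IFNGR1 without FOXA1 control replicate 1 (-0.41, adjusted p = 0.051). The targeted genes differed as well: FOXA1 by 0.87 (-0.90 in the TRIM28 knockdown and -1.78 in its own) and TRIM28 by -1.83 (-2.01 in its own knockdown and -0.19 in the FOXA1 knockdown).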

How the results depend on the processing

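No called change of a member turned round under the alternatives run, but several calls did not hold. Of the members called, 14 of 24 in the FOXA1 knockdown, 3 of 9 in the TRIM28 knockdown (PSMD12, PSMD10 and PSMG1) and 1 of 2 for the difference (PSMD5) were called under every alternative run. The 24 include PSMB9, which passed the low-count filter only through the knockdown libraries. The 9 include PSMA2, for which only the control libraries all reached 10 counts. Calls held under 1 of 12 alternatives for PSMA2 in the TRIM28 knockdown, 3 of 12 for PSMD1 and 5 of 12 for PSMG3 in the FOXA1 knockdown, and 6 of 17 for PSMB3 in the difference. In the FOXA1 knockdown the alternatives that kept all libraries of the comparison gave 7 to 10 rises and 10 to 15 falls. They called between 22.8% (no low-count filter) and 53.5% (replicate block) of all genes tested. In the TRIM28 knockdown, falls numbered 3 with library totals only and 13 with all 12 libraries in 1 fit. Of all genes tested, 27.4% and 35.9% were called under these settings. For the difference between the effects, library totals only gave 1 rise and 1 fall, and the fit without a low-count filter gave 1 fall. Those fits called 11.8% and 5.22% of all genes tested. Leaving out 1 replicate at a time gave 6 to 10 rises and 9 to 14 falls in the FOXA1 knockdown, 2 to 3 rises and 1 to 16 falls in the TRIM28 knockdown, 0 to 1 rise and 1 to 5 falls for the difference, and 0 calls between the controls. Of all genes tested, these fits called 45.8% to 49.7% in the FOXA1 knockdown and 11.7% to 45% in the TRIM28 knockdown. They called 7.15% to 21.4% for the difference and at most 0.0131% between the controls. The cause of these shifts was not tested.

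Same-numbered replicates of a knockdown and its control barely deviated together (correlations of -0.0754 to 0.0818 over all comparisons), so the numbers were not taken to pair the samples. Replicates 2 and 3 of the FOXA1 knockdown did correlate best with the control of their own number (0.00888 and 0.0818). No other replicate did so in any comparison. With a replicate block 10 members rose and 15 fell in the FOXA1 knockdown, 3 rose and 5 fell in the TRIM28 knockdown, 1 rose and 1 fell for the difference, and 0 were called between the controls. Depth limits the immunoproteasome genes, PSMA8 and PSMB11, which had at most 46 counts in any library.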
